A study of Drosophila melanogaster with 12 samples.

Results

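Female fruit flies (Drosophila melanogaster, genotype Oregon) that had fed for 3 days on cisplatin together with titanium dioxide (TiO2) nanoparticles were compared with flies that had fed on the same medium without either. The comparison rests on 6 of the 12 libraries of the series, 3 from controls and 3 from the combination, chosen by their sample labels and count columns. The other 6 libraries, 3 from flies on cisplatin alone and 3 from flies on TiO2 alone, enter the fit for their share in the estimate of spread and are shown beside some genes. All flies received yeast and a green dye in the medium, prepared with water for controls and with the test solutions otherwise. The dose is given as 50 µg/ml of each substance in the protocol and as 50 mg/ml in the sample titles, and no value below depends on it. The number of flies in a library, their age and whether replicates came from separate cultures are not stated, so the p-values measure the spread between these libraries, which may be technical. The labels give every library the batch "single". The series asks how the 2 substances together alter transcription in the whole body.

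Cisplatin is a platinum drug that binds DNA and forms adducts and crosslinks, which cells remove by excision and recombination repair. TiO2 particles are a common food and pigment additive, and eaten particles meet the midgut first, where enterocytes secrete trypsins, Jonah proteases, maltases, amylase, lipases and lysozymes. What crosses into the hemolymph is taken up by hemocytes, the blood cells, and by nephrocytes, which filter the hemolymph through a slit diaphragm and internalise proteins with the receptor Cubilin and its membrane partner Amnionless. The fat body makes transferrin, antimicrobial peptides and part of the detoxifying enzymes.

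Digestive enzyme transcripts were lower in all 3 combination libraries than in all 3 controls when summed over proteases or over lipases. The nephrocyte receptor genes Cubn2 and Amnionless fell, and aqz and CG3213 rose, in the fit that left out combination replicate 2. With every library included, no gene passed in edgeR, and DESeq2 called 47. Ribosomal protein genes were lower by a small amount in nearly every member, and DNA repair and cell cycle genes were not separated between the groups.

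Library totals were between 27.2 M and 35.0 M (M = 1000000) counts in control and between 35.0 M and 40.3 M in the combination. A count of 0 allows up to 3 counts, or 0.0744 to 0.110 counts per 1000000 library counts (CPM) in these 6 libraries. That limit covers counting error only, because reads copied by PCR from 1 molecule cannot be recognised here. The library labelled combination replicate 2 held male transcripts: 64 testis, accessory gland, dosage compensation and Y chromosome genes summed to 3443 CPM there and to between 2.96 and 8.57 CPM in the other 11. It had 15438 genes with a count, beside 12944 and 13743 in the other combination libraries. The protocol says that female flies were used, so results are given with and without this library: the 12-library fit includes it and the 11-library fit leaves it out. Testis genes alone summed to 5.91 CPM in combination replicate 3, which stays in the 11-library fit. They summed to 2.12 CPM in combination replicate 1 and to 1.51, 3.49 and 1.89 CPM in control replicates 1 to 3. Accessory gland genes summed to 1.09 CPM in combination replicate 3, inside the control range. Levels of genes are in CPM scaled by TMM factors, and sums over lists are in CPM of the library total.

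**Figure D1:**
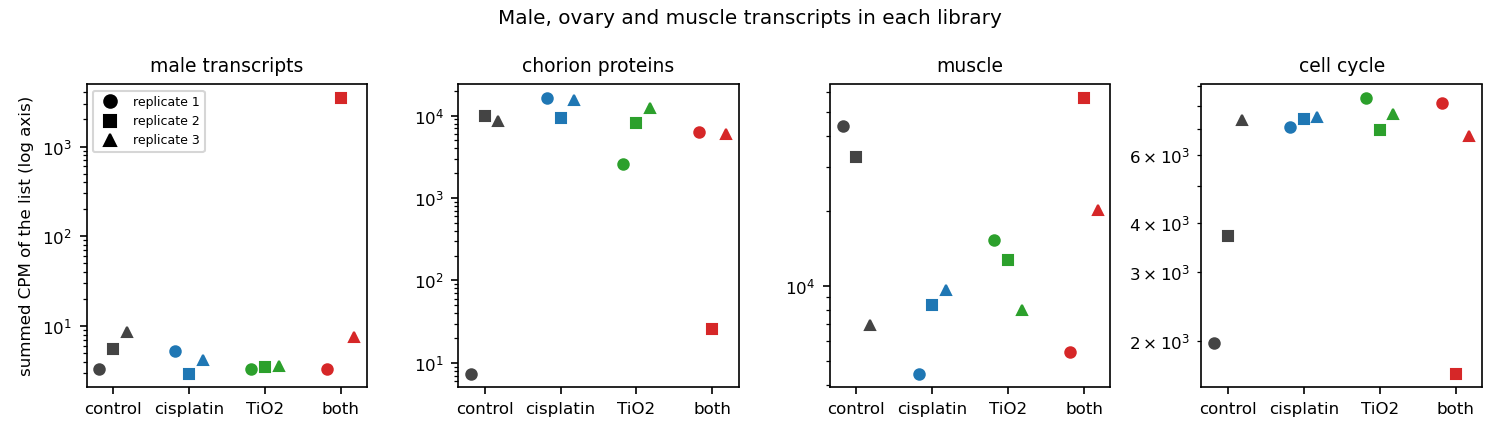
Summed CPM (log axis) of 4 gene lists in each of the 12 libraries, by group, with 1 symbol per replicate ("both" is the combination). Combination replicate 2 stands at 3443 CPM of male transcripts against at most 8.57 CPM elsewhere, and it shares with control replicate 1 the lowest chorion and cell cycle sums.

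The libraries of each group also differed in tissue makeup. Chorion proteins, made by ovarian follicle cells for the eggshell, summed to 7.40 CPM in control replicate 1 and 25.8 CPM in combination replicate 2, and to between 5970.1 and 9771 CPM in the other 4 libraries. Muscle genes summed to 43964, 32871 and 6961 CPM in control replicates 1 to 3, and to 5404, 56825 and 20250 CPM in the combination. Control replicate 1 and combination replicate 2 thus had few late egg chamber transcripts, and muscle transcripts covered about the same range in both groups. In bulk RNA, fewer cells of a type and less RNA per cell cannot be told apart. How far this makeup takes part in the results was not tested, and control replicate 1 was therefore left out as well in a further fit.

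**Figure D2:**
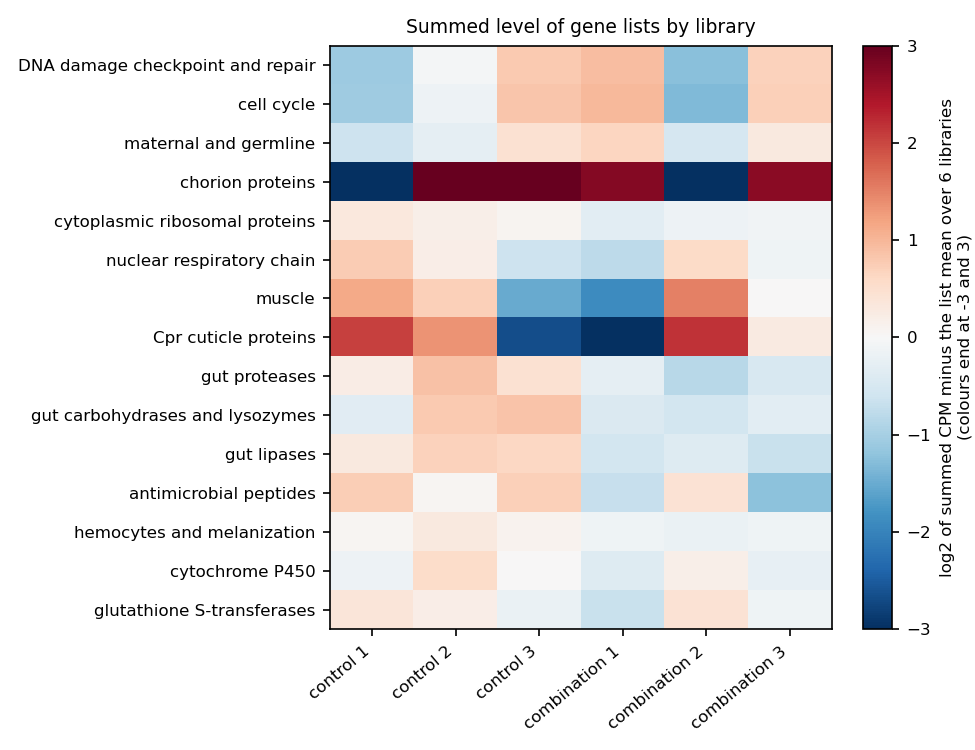
Summed level of 15 gene lists in the 3 control and 3 combination libraries, as the log2 of summed CPM minus the list's mean over the 6 libraries (red higher, blue lower, colours ending at -3 and 3). Gut proteases and lipases are lower in every combination library than in every control, whereas chorion, muscle, cuticle and cell cycle sums follow single libraries of both groups.

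In the 12-library fit 0 of 11060 genes passed, which is 0% (edgeR quasi-likelihood test, smallest Benjamini-Hochberg adjusted p 0.518). At an unadjusted p under 0.05 there were 362 higher genes (3.27%) and 422 lower genes (3.82%), or 7.09% in all. DESeq2 called 7 higher (0.0645%) and 40 lower genes (0.369%) of 10849, or 0.433% in all. The ranges of the 3 control and 3 combination libraries did not overlap in 755 genes (6.83%), of which 195 were higher (1.76%) and 560 lower (5.06%).

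In the 11-library fit, 4 of 11060 genes passed (0.0362%), 2 higher and 2 lower (0.0181% each). At an unadjusted p under 0.05 there were 981 higher (8.87%) and 1455 lower genes (13.2%), or 22.0% in all. DESeq2 called 503 of 10190 genes (4.94%), 71 higher (0.697%) and 432 lower (4.24%). Ranges did not overlap in 2669 genes (24.1%), 938 higher (8.48%) and 1731 lower (15.7%). With control replicate 1 left out too, 3 genes passed (0.0271%), 1 higher (0.00904%) and 2 lower (0.0181%). An unadjusted p under 0.05 was then found for 1412 genes (12.8%), 587 higher (5.31%) and 825 lower (7.46%). The median log2 fold change of all tested genes was 0.05 in the 12-library fit, -0.09 in the 11-library fit and -0.03 without both.

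In the authors' deposited table for this comparison, 70 of 14470 genes with an adjusted p had one under 0.05 (0.484%), 13 higher (0.0898%) and 57 lower (0.394%). Of those 57 lower genes, 56 had non-overlapping ranges over the 6 libraries, and all 57 were also lower in the 11-library edgeR fit. None of the 13 higher genes (0 of 13) had 90% or more of its CPM in combination replicate 2. CG3213, at 246 CPM in that library, had a deposited log2 fold change of 11.27 but no p-value, so it could not be called. The calls were made from the same counts, so these values describe the calls and are not separate support.

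The receptor genes of nephrocyte protein uptake held the 2 called decreases. Cubn2 (FBgn0259140, chromosome 3L, 11801951 to 11814755, minus strand, protein coding), a paralog of Cubilin, had 14.8, 15.2 and 12.3 CPM in control replicates 1 to 3. It had 1.38, 3.58 and 1.44 CPM in the combination, so every combination library was below every control, replicate 2 included. Its means were 14.1 ± 1.59 and 2.13 ± 1.25 CPM (SD, n = 3 each). Cubn2 fell by 3.32 on the log2 scale in the 11-library fit (standard error 0.33, edgeR Benjamini-Hochberg adjusted p 0.00907). In the 12-library fit its log2 fold change was -2.72 (standard error 0.41, adjusted p 0.518 in edgeR), and without control replicate 1 as well it was -3.27.

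Amnionless (FBgn0025686, chromosome 2L, 287252 to 289144, minus strand), the partner that anchors Cubilin in the membrane, was named after its values were seen, since its mean was under 5 CPM. It had 87, 107 and 105 counts in the controls and 3, 13 and 1 in the combination, or 3.19, 3.82 and 2.86 CPM against 0.0811, 0.394 and 0.0239 CPM. It fell in the 11-library edgeR fit (Benjamini-Hochberg adjusted p 0.00907), and its log2 fold change was -4.31 in the 12-library fit (adjusted p 0.518). Summed counts per library total were 62.1 times higher in control than in combination replicates 1 and 3 (95% exact Poisson interval 24.01 to 229.5, counting error only). With replicate 2 this ratio was 21.3 (13.1 to 36.99). Amnionless overlaps CG3625 on its own strand and an antisense RNA gene, asRNA:CR46263, so its counts are less certain.

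Cubn itself (Cubilin, chromosome X, 9558665 to 9571308) had 47.9, 54.6 and 36.4 CPM in control and 21.7, 34.6 and 23.6 CPM in the combination. Its ranges did not overlap, its log2 fold changes were -0.80 in the 12-library fit and -1.03 in the 11-library fit, and it passed in neither (edgeR adjusted p 0.60 and 0.17). The megalin gene mgl, chosen here after its values were seen, had 87.3, 148 and 108 CPM in control and 108, 131 and 97.3 CPM in the combination. The groups therefore overlapped for mgl, unlike for the other 3 uptake receptors.

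The single treatments share the control libraries with the combination, so their values are given side by side only. Cubn2 had 9.23, 6.09 and 4.80 CPM with cisplatin and 3.20, 3.35 and 3.02 CPM with TiO2. Amnionless had 1.73, 1.47 and 0.850 CPM with cisplatin and 0.410, 0.553 and 0.559 CPM with TiO2. For both genes, combination replicates 1 and 3 were the lowest of the 12 libraries. Both calls of the 11-library fit ended when only the control and combination libraries were fitted, with a replicate block, and without combination replicate 1, combination replicate 3 or control replicate 2. The highest edgeR adjusted p among these was 0.313 for Cubn2 and 0.366 for Amnionless.

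Slit diaphragm genes of the same list did not pass in edgeR in either fit, while DESeq2 called Mec2 in the 11-library fit (adjusted p 0.00577). Mec2, the podocin homologue, had 14.7, 9.71 and 9.97 CPM in control and 5.19, 13 and 5.03 CPM in the combination, with replicate 2 inside the control range. The junction scaffold gene pyd had 154, 181 and 218 CPM in control and 271, 183 and 237 CPM in the combination. Over the 9 tested members, the median log2 fold change was -0.19 in the 12-library fit and -1.16 in the 11-library fit. That median was 0.03 without combination replicate 3 and -0.76 without replicates 1 and 2, so it rests on single libraries. Summed over the list, levels were 312, 447 and 414 CPM in control and 415, 379 and 390.2 CPM in the combination, which overlap. Much of that sum is pyd, so it says little about members at low levels. Of the 5 slit diaphragm genes, 4 were lower in the 11-library fit (median -1.16) and only pyd was higher. In the 12-library fit 2 were lower and 3 higher (median 0.025).

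**Figure D3:**
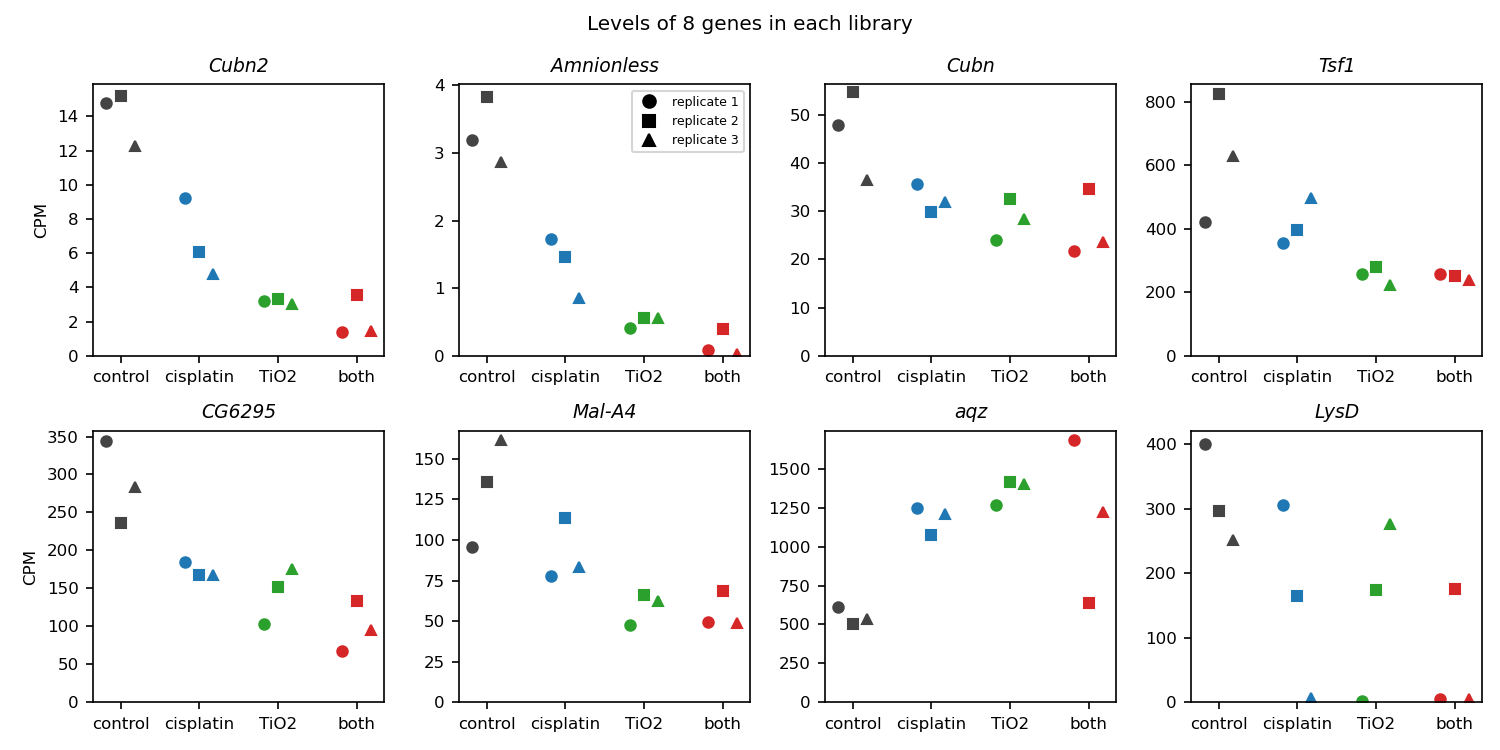
CPM of 8 genes in each library, by group, with 1 symbol per replicate; each axis starts at 0 ("both" is the combination). Cubn2, Amnionless, Cubn, Tsf1, CG6295, Mal-A4 and LysD are lower in all 3 combination libraries than in all 3 controls, and aqz is higher. LysD is near 5 CPM in combination replicates 1 and 3 but at 175 CPM in replicate 2, beside 252 CPM in the lowest control.

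Iron handling genes were the next set, ordered as carriers, stores and enzymes. Tsf1 (chromosome X, 18387084 to 18390344), the hemolymph iron carrier transferrin, had 423, 825 and 631 CPM in control and 259, 251 and 238 CPM in the combination. All 3 combination libraries were below the lowest control, and their spread was small (249 ± 10.3 CPM, against 626 ± 201 CPM; SD, n = 3). The log2 fold change of Tsf1 was -1.33 in both fits, and the edgeR adjusted p was 0.518 and 0.171. Tsf3 overlapped between groups because combination replicate 2 had 13.4 CPM, while the controls had 9.23, 9.82 and 4.66 CPM and the other combination libraries 2.59 and 3.98 CPM.

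Fer1HCH, the ferritin heavy chain, was chosen after its values were seen and had 1203, 1177 and 949 CPM in control and 857, 802 and 818 CPM in the combination. Its neighbour Fer2LCH, the light chain, chosen likewise, which overlaps it on the opposite strand, had 1099, 1214 and 1021 CPM against 959, 748 and 833 CPM. Both ferritin subunits lay below the control range in all 3 combination libraries, with log2 fold changes of -0.43 and -0.39. Mco1, a multicopper oxidase, had 21.6, 30.0 and 11.1 CPM in control and 8.05, 13.9 and 7.5 CPM in the combination. IscU, the scaffold for iron-sulfur clusters, had a log2 fold change of -0.34 in the 12-library fit and -0.52 in the 11-library fit. Of 17 tested members, 4 had an unadjusted p under 0.05 in the 12-library fit (23.5%, all lower) and 6 in the 11-library fit (35.3%), beside 3.82% and 13.2% of all genes. The median of the list was nevertheless only -0.17 and -0.20.

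Digestive enzymes of the midgut were lower in most members and, for 2 of 3 sets, in every combination library. Gut proteases summed to 4883, 7801 and 5787 CPM in control and 3516, 2378 and 3042 CPM in the combination. Gut lipases summed to 914, 1203 and 1151 CPM in control and 513, 575 and 472 CPM in the combination. In both sets every combination library was below every control, and the library with male transcripts was no exception. Carbohydrases with lysozymes summed to 2371, 5190 and 5387 CPM in control and 2235, 2031 and 2402 CPM in the combination, where control replicate 1 fell inside the combination range.

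Of 32 tested protease genes, 30 had a lower mean level by the fit in the combination, with and without replicate 2. The median log2 fold change was -1.09 in the 12-library fit, -1.35 in the 11-library fit and -1.07 without control replicate 1 as well. Over the fits that left out 1 library, the median with all others ran from -1.35 to -0.73, the latter without control replicate 1. An unadjusted p under 0.05 was reached by 12 proteases in the 12-library fit (37.5%, all lower) and by 16 in the 11-library fit (50.0%, all lower), beside 3.82% and 13.2% of all genes. No protease gene passed the adjusted threshold in edgeR. DESeq2 called 2 of them lower in the 12-library fit and 9 in the 11-library fit, where it called 0.369% and 4.24% of all genes lower.

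Among 11 trypsin genes, alphaTry (chromosome 2R, 11344260 to 11345119) had 745, 591 and 447 CPM in control and 212, 291 and 271 CPM in the combination. Its log2 fold change was -1.20 (standard error 0.24, edgeR adjusted p 0.538) in the 12-library fit and -1.30 in the 11-library fit. The trypsin iotaTry had 18.4, 18.6 and 11.9 CPM in control and 6.00, 11.3 and 8.67 CPM in the combination. Neither trypsin overlapped between groups. Trypsin genes lie in clusters of close paralogs, so reads may be shared among them.

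All 16 Jonah genes, which encode serine proteases secreted in the midgut, were lower in both fits. Jon65Aiii had 502, 695 and 645 CPM in control and 191, 377 and 161 CPM in the combination. Jon99Ci had 294, 416 and 344 CPM in control and 132, 90.3 and 151 CPM in the combination. Neither overlapped between groups, and combination replicate 2 was the highest for the former and the lowest for the latter. The log2 fold changes in the 12-library fit were -1.34 for Jon65Aiii and -1.50 for Jon99Ci.

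**Figure D4:**
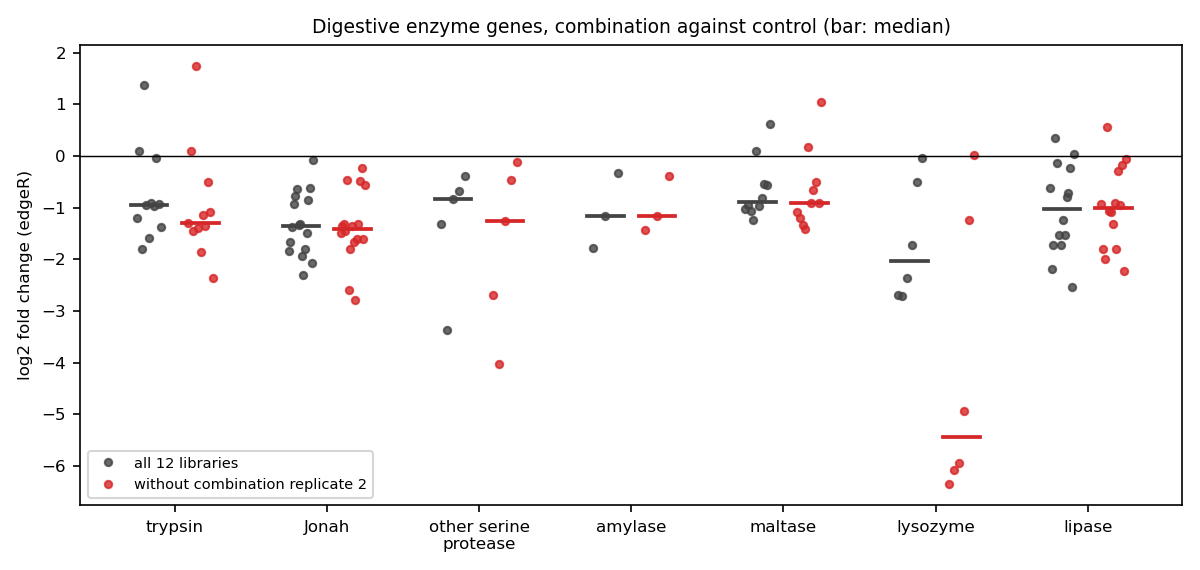
Log2 fold change of each tested digestive enzyme gene, combination against control, by enzyme class, from the fit to all 12 libraries (black) and the fit without combination replicate 2 (red); bars are class medians. Most genes of every class lie below 0 in both fits, and the lysozymes differ most between the fits, with medians of -2.04 and -5.43.

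Of the carbohydrate enzymes, maltases cut disaccharides and amylase cuts starch. Mal-A4 (chromosome 2R, 8458815 to 8460884) had 95.8, 135 and 161 CPM in control and 49.3, 68.6 and 49.1 CPM in the combination. Its neighbour Mal-A3 had 86.4, 102 and 88.1 CPM in control and 34.2, 60.3 and 38.3 CPM in the combination. Mal-A2, in the same cluster, had 56.7, 73.8 and 74.6 CPM against 23.4, 46.6 and 36.4 CPM. None of these 3 maltases overlapped between groups, and their log2 fold changes in the 12-library fit were -1.23, -1.06 and -0.95. Amy-p, named after its values were seen, had 598, 1597 and 1760 CPM in control and 703, 575 and 482 CPM in the combination, so that control replicate 1 overlapped. Of 19 tested genes of this list, 7 had an unadjusted p under 0.05 in the 12-library fit (36.8%) and 12 in the 11-library fit (63.2%), all of them lower, beside 3.82% and 13.2% of all genes.

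Lysozyme genes behaved differently from the other enzymes, in that their levels were high or nearly absent library by library. LysD had 401, 297 and 252 CPM in control, and 5.24, 175 and 5.08 CPM in the combination. It had 307, 165 and 6.86 CPM with cisplatin and 2.30, 174 and 276 CPM with TiO2. Low levels were thus found in 4 of the 9 treated libraries and in no control. LysB, LysC and LysE, named after their values were seen, were low in the same 4 libraries. LysB, for instance, had 1.11, 32.6 and 0.694 CPM in the combination and 108, 55.1 and 57.7 CPM in control. These 4 genes are near-identical neighbours within the mwh locus on chromosome 3L, so they may share reads and do not count as separate evidence. The log2 fold change of LysD was -2.36 in the 12-library fit (standard error 1.70) and -5.94 in the 11-library fit (standard error 1.93, edgeR adjusted p 0.220).

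The lipase gene CG6295 (chromosome 3R, 27005899 to 27007055) had 343, 236 and 283 CPM in control and 68.0, 134 and 96.0 CPM in the combination. Its log2 fold change was -1.54 (standard error 0.27, edgeR adjusted p 0.518) in the 12-library fit and -1.81 (adjusted p 0.0945) in the 11-library fit. CG6295 lies on the strand opposite to RYa-R, and the strand setting of the counting is not known. CG8093 had 83.5, 73.9 and 55.3 CPM in control and 32.0, 56.6 and 41 CPM in the combination, which overlap at replicate 2. CG6277 had 96.8, 249 and 234 CPM against 101, 20.0 and 55.0 CPM. Of 14 tested lipases, 8 had an unadjusted p under 0.05 in the 12-library fit (57.1%) and 6 in the 11-library fit (42.9%), all lower, beside 3.82% and 13.2% of all genes. The median was -1.02 and -1.01.

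Defence genes of the fat body and hemocytes had lower medians, but single libraries moved them. Antimicrobial peptide genes summed to 1732, 1077 and 1711 CPM in control and 645, 1398 and 442 CPM in the combination, so replicate 2 overlapped the controls. Over 30 tested members the median log2 fold change was -0.84 in the 12-library fit, -1.45 in the 11-library fit and -0.34 without control replicate 1. At an unadjusted p under 0.05 there were 3 lower and 2 higher members in the 12-library fit (10.0% and 6.67%), and 12 lower ones (40%) in the 11-library fit. Over all genes these shares were 3.82% lower and 3.27% higher, and 13.2% lower. The 2 higher members, the cecropin genes CecA2 and CecC, picked out after their values were seen, had their highest values in combination replicate 2, at 9.62 and 24.9 CPM, beside at most 2.45 CPM in the controls.

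Peptides of the Toll branch made up most of the lower members. BomBc1, a bomanin induced by Toll signalling, had 71.8, 27.3 and 22.7 CPM in control and 4.43, 18.9 and 2.75 CPM in the combination. BomS1 had 184, 56.3 and 52.5 CPM in control and 24.8, 75.6 and 14.4 CPM in the combination. The antifungal peptide gene Mtk (metchnikowin) had 22.7, 4.96 and 51.5 CPM in control against 2.76, 26.5 and 1.82 CPM. BomBc1 did not overlap between groups, whereas for BomS1 and Mtk replicate 2 lay inside the control range. The median over 19 tested Toll-dependent peptides was -1.06 in the 12-library fit, and that over 11 Imd-dependent peptides was 0.39. In the 11-library fit both were negative, at -1.49 and -1.24. Imd-dependent peptides summed to 22.4, 77.4 and 985 CPM in control and 73.4, 381 and 18.8 CPM in the combination. Their sums overlapped between groups, and control replicate 3 stood far above the other libraries. Leaving out control replicate 3 moved the 11-library median of the whole antimicrobial peptide list to -0.92.

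Of the recognition proteins, PGRP-LC, the receptor of the Imd pathway, had 51.7, 46.6 and 35.5 CPM in control and 26.7, 53.3 and 23.7 CPM in the combination. PGRP-SA, which detects peptidoglycan upstream of Toll, had 8.94, 10.6 and 9.37 CPM in control and 3.27, 17.4 and 4.57 CPM in the combination. In both genes, combination replicate 2 was the highest of the 6 libraries and replicates 1 and 3 were the lowest. The recognition and signalling list (21 genes) had a median of -0.20 in the 12-library fit and -0.97 in the 11-library fit. Its counts of lower genes at an unadjusted p under 0.05 were 1 (4.76%, near the 3.82% of all genes) and 10 (47.6%, beside 13.2%).

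The hemocyte marker genes had low and variable levels. Sr-CI (chromosome 2L, 4121702 to 4124153), a scavenger receptor of phagocytes, had 26.2, 14.1 and 21.3 CPM in control and 6.81, 10.5 and 8.21 CPM in the combination. Its groups did not overlap, and its log2 fold change was -1.27 (standard error 0.26, edgeR adjusted p 0.538) in the 12-library fit. Hml, the clotting protein hemolectin, had 60.7, 61.9 and 33.9 CPM in control and 14.0, 50.5 and 25.3 CPM in the combination. The phagocytosis receptor NimC1 had 38.9, 22.9 and 14.6 CPM against 4.05, 15.9 and 9.32 CPM, and eater 12.5, 4.61 and 5.66 CPM against 1.49, 4.79 and 2.78 CPM. For these 3 genes the groups overlapped only through combination replicate 2. The 8 hemocyte genes tested had a median of -0.65 in the 12-library fit, all 8 lower, and -1.42 in the 11-library fit, with 6 lower.

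Among detoxifying enzymes, glutathione S-transferases (35 tested) had a median of -0.29 in the 12-library fit and -0.55 in the 11-library fit. Cytochromes P450 (78 tested) had -0.32 and -0.78, and UDP-glycosyltransferases (32 tested) had -0.27 and -0.74. Without control replicate 1 as well these medians were -0.34, -0.63 and -0.26. The counts of lower members at an unadjusted p under 0.05 in the 12-library fit were 7 of 35 (20.0%), 7 of 78 (8.97%) and 2 of 32 (6.25%), beside 3.82% of all genes. In the 11-library fit they were 12 (34.3%), 26 (33.3%) and 9 (28.1%), beside 13.2% of all genes. Leaving out control replicate 1 from the 12-library fit moved the median of the UDP-glycosyltransferases to 0.0012.

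GstE7 had 53.9, 44.0 and 43.6 CPM in control and 20.9, 28.8 and 27.5 CPM in the combination, with no overlap. GstD3 ran the other way, with 48.0, 22.8 and 44.5 CPM in control and 72.3, 32.3 and 89.4 CPM in the combination, and overlapped at replicate 2. Cyp6a18 had 14.5, 24.4 and 14.8 CPM against 6.97, 15.4 and 6.75 CPM, and Cyp9f2 had 115, 104 and 76.2 CPM against 46.2, 83.8 and 65.2 CPM. Both P450 genes overlapped between groups through replicate 2. The glucuronyl transferase gene Ugt35A1 had 27.7, 19.0 and 19.7 CPM in control and 11.4, 18.0 and 15.4 CPM in the combination, without overlap.

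Antioxidant enzymes had small differences. Sod1, the cytosolic superoxide dismutase, had 532, 457 and 341 CPM in control and 213, 357 and 282 CPM in the combination. Cat, catalase, had 345, 463 and 325 CPM against 232, 365 and 239 CPM. Both were below all controls in replicates 1 and 3 and inside the control range in replicate 2. The transcription factor gene cnc, the fly Nrf2 homologue, had 213, 236 and 316 CPM in control and 397, 237 and 329 CPM in the combination. The list median over 18 genes was -0.24 in the 12-library fit and -0.30 in the 11-library fit.

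Metal-binding and stress genes gave no even pattern. MtnB, a metallothionein, had 86.7, 20.7 and 67.9 CPM in control and 15.9, 21.3 and 15.1 CPM in the combination, and control replicate 2 overlapped. The median of metallothionein and copper transport genes (12 tested) was -0.08 in the 12-library fit and -0.16 in the 11-library fit. The 6 metallothioneins alone had -0.50 and -1.09, with 4 and 5 of them lower, whereas the 3 tested copper transporters had 0.005 and 0.016. Metallothioneins summed to 590, 412 and 314 CPM in control and 401, 422 and 395 CPM in the combination, which overlap. Heat shock proteins and chaperones (22 tested) had medians of -0.16 and -0.34. At an unadjusted edgeR p under 0.05, 1 was higher (4.55%) and 0 lower (0%) in the 12-library fit, beside 3.27% and 3.82% of all genes. In the 11-library fit 0 were higher (0%) and 2 lower (9.09%), beside 8.87% and 13.2% of all genes. The 4 tested Turandot genes, which encode stress-induced humoral factors, had a median of -0.68 in the 12-library fit that became 0.24 without control replicate 1.

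One-carbon metabolism held a member that was higher in all 3 combination libraries. Nmdmc (chromosome 3R, 9042508 to 9050555), a mitochondrial enzyme of the folate cycle, had 97.3, 71.1 and 71.3 CPM in control and 128, 149.8 and 111 CPM in the combination. It had 60.8, 68.2 and 47.1 CPM with cisplatin and 53.5, 57.8 and 59.3 CPM with TiO2. The log2 fold change against control was 0.70 (standard error 0.19, edgeR adjusted p 0.60), and the gene overlaps Rel on the same strand, which leaves its counts uncertain. Sardh, sarcosine dehydrogenase, had 23.7, 36.6 and 18.1 CPM in control and 37.1, 36.0 and 46.0 CPM in the combination, and overlapped between groups. The median of the 16 folate and one-carbon genes was 0.12 in the 12-library fit and -0.01 in the 11-library fit.

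The 2 called increases were aqz and CG3213. The gene aqz (FBgn0286516, chromosome 3R, 8813490 to 8820682, minus strand) had 614, 501 and 537 CPM in control and 1682, 639 and 1222 CPM in the combination. Every combination library was above every control, replicate 2 by little. It rose by 1.40 on the log2 scale in the 11-library fit (standard error 0.17, edgeR Benjamini-Hochberg adjusted p 0.0311), with 1.10 (adjusted p 0.60) in the fit in the 12-library fit. It had 1250.3, 1076 and 1209 CPM with cisplatin and 1266, 1416 and 1399 CPM with TiO2. CG9837 overlaps aqz on the same strand and a long noncoding RNA gene, lncRNA:CR43130, on the other, so part of its counts may belong to them. The call of aqz ended in the same 5 settings as those of the receptor genes, with upper-quartile scaling and with a filter at a mean of 5 CPM (highest edgeR adjusted p 0.536).

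CG3213 (FBgn0031545, chromosome 2L, 3517273 to 3519651) had 1 count in each control library and 40, 8108 and 56 counts in the combination. The value of replicate 2, the library with male transcripts, was 246 CPM, against 1.08 and 1.34 CPM in replicates 1 and 3. CG3213 reached the mean of 5 CPM for naming only through that library. The same library kept it in the setting with a filter at a mean of 5 CPM. CG3213 rose in the 11-library fit (edgeR Benjamini-Hochberg adjusted p 0.0129). Its counts per library total were then 38.5 times those of the controls, with a 95% exact Poisson interval of 12.8 to 189.98 that covers counting error only. The call ended in the same 5 settings (highest edgeR adjusted p 0.313) and without control replicate 1 (adjusted p 0.0726). Cisplatin libraries had 13, 5 and 12 counts and TiO2 libraries 31, 16 and 15 counts.

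Other genes with the smallest unadjusted p among higher genes in the 11-library fit had modest differences. The transcription factor gene gfzf had 66.4, 77.1 and 73.2 CPM in control and 118, 60.1 and 113 CPM in the combination. CG3376 had 71.5, 75.5 and 71.6 CPM against 114, 84.8 and 105 CPM. CG10055 had 43.4, 49.3 and 68.1 CPM against 118, 50.6 and 89.97 CPM. Of these, only CG3376 was above all controls in all 3 combination libraries. The growth inhibitor gene scyl had 299, 296 and 412 CPM in control and 574, 308 and 519 CPM in the combination, Tango6 had a log2 fold change of 0.83 in that fit and CG43867 one of 0.85. In the 12-library fit, CG1503 was among the higher genes, with 3.77, 2.93 and 4.96 CPM in control and 7.05, 8.13 and 9.51 CPM in the combination. The other 4 genes named there were high in combination replicate 2 alone: CG32436 at 213 CPM, the testis tubulin gene betaTub85D at 235 CPM, CatB at 75.3 CPM and ymp at 64.3 CPM, beside at most 2.81 CPM in the other 5 libraries.

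Lower genes outside the lists included CG3819, with 34.1, 41.2 and 26.0 CPM in control and 7.27, 4.73 and 5.72 CPM in the combination. CG14125 had 106, 117 and 91.8 CPM in control and 46.6, 55.1 and 45.1 CPM in the combination. Neither overlapped between groups, and their log2 fold changes in the 12-library fit were -2.51 and -1.10 (edgeR adjusted p 0.538 for both). CG9394 had 68.7, 55.5 and 53.7 CPM against 18.9, 39.6 and 27.0 CPM, and Ag5r, a gene of the antigen 5 family, 142, 119 and 85.0 CPM against 30.8, 78.2 and 45.3 CPM. The odorant-binding protein gene Obp57c had 72.6, 54.1 and 58.6 CPM in control and 26.3, 50.5 and 31.3 CPM in the combination. These 3 genes did not overlap between groups either. CG1092 and Idgf3, a chitinase-like growth factor gene, overlapped through combination replicate 2, at 22.9 and 131 CPM.

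Ribosomal protein genes were lower by a small amount in almost all members. Their sum was 91587, 83357 and 77758 CPM in control and 59136, 66190 and 67901 CPM in the combination. Every combination library was below every control. Of 86 tested genes, 84 were lower in the 12-library fit and 86 in the 11-library fit, with medians of -0.39 and -0.45. Without control replicate 1 these medians were -0.24 and -0.29. Ranges did not overlap in 57 of them (66.3%) in the 12-library fit, beside 5.06% of all genes, and 46 (53.5%) had an unadjusted p under 0.05 and were lower, beside 3.82% of all genes. In the 11-library fit 51 did (59.3%, beside 13.2%), and 24 (27.9%, beside 7.46%) without control replicate 1 as well. Members of this list vary together from library to library, so these counts are not separate observations. RpL8 had 2332, 2108 and 1832 CPM in control and 1108, 1500.3 and 1384 CPM in the combination, and RpS15 had 1961, 1612 and 1409 CPM against 887, 1162 and 1094 CPM. The 3 cisplatin libraries summed to 78234, 66097 and 63898 CPM and the TiO2 libraries to 60256, 66872 and 63751 CPM.

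DNA damage checkpoint and repair genes, the pathways that act on platinum adducts, were higher in most members, with groups that overlapped in their sums. They summed to 1235, 2493 and 4508 CPM in control and 4972, 1098 and 4224 CPM in the combination. The 2 lowest libraries were control replicate 1 and combination replicate 2, the same that were low in chorion transcripts. Of 49 tested genes, 45 were higher in the 12-library fit (median 0.27, 0 with an unadjusted p under 0.05). In the 11-library fit, 48 were higher (median 0.63), 11 of them at an unadjusted p under 0.05 (22.4%, beside 8.87% of all genes). Leaving out combination replicate 1 turned the median of the 12-library fit to -0.06, and leaving out control replicate 3 raised it to 0.71.

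By role, the medians in the 11-library fit were 0.72 for checkpoint genes, 0.57 for nucleotide excision repair and 0.82 for crosslink repair. They were 0.58 for recombination, 0.90 for mismatch repair and 0.63 for replication and translesion synthesis. In the 12-library fit they were lower, at 0.33, 0.27, 0.46, 0.22, 0.44 and 0.25 in that order. The only lower member in the 11-library fit was among the 13 replication and translesion genes, with a log2 fold change of -1.05. FANCI, of the Fanconi pathway of crosslink repair, had 13.6, 19.5 and 29.4 CPM in control and 47.3, 8.92 and 33.9 CPM in the combination. Pms2, a mismatch repair gene, had 11.9, 23.2 and 55.8 CPM against 77.4, 9.98 and 68.4 CPM. In both, replicates 1 and 3 were above all controls and replicate 2 below them. The lesion recognition gene Xpc had 93.4, 155 and 219.6 CPM in control and 299.98, 89.4 and 233 CPM in the combination, and mus201, the fly XPG nuclease, had a log2 fold change of 0.53 in the 12-library fit.

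Cell cycle genes, used beside these as markers of dividing cells, varied from library to library in the same way. They summed to 1975, 3717 and 7364 CPM in control and 8132, 1645 and 6697 CPM in the combination. Maternal and germline genes, which mark the ovary, summed to 2566, 3271 and 5350 CPM in control and 6188, 2754 and 4802 CPM in the combination. All 24 cell cycle genes were higher in both fits, with medians of 0.34 and 0.75. Leaving out combination replicate 1 turned the former to -0.05, and leaving out control replicate 3 moved it to 0.89. The median of the 29 germline genes was 0.27 and 0.55, and the former was 0.01 without combination replicate 1. E2f1, a driver of S phase, had 169, 205 and 308 CPM in control and 406, 162 and 316 CPM in the combination. The spindle checkpoint gene BubR1 had 17.3, 52.8 and 99.0 CPM against 140.5, 15.2 and 109 CPM. The posterior determinant nanos had 117, 104 and 224 CPM against 297, 73.2 and 231 CPM. The part of ovary content in the values of the repair genes was not tested.

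Taken as 1 list, death genes had a median near 0. The median over 18 inducers, caspases and inhibitors was 0.03 in the 12-library fit and -0.14 in the 11-library fit. By role, the 11-library medians were -0.33 for inducers, 0.19 for caspases and -0.52 for inhibitors. At an unadjusted edgeR p under 0.05, 1 gene was lower in the 12-library fit (5.56%, beside 3.82% of all genes). In the 11-library fit 5 were lower (27.8%, beside 13.2%), and 0 were higher in either fit. Damm, a caspase, had 33.8, 15.0 and 16.3 CPM in control and 10.6, 9.80 and 8.57 CPM in the combination, with no overlap and a log2 fold change of -1.17. Diap1, the caspase inhibitor, had 149.8, 140.3 and 106 CPM against 92.4, 169 and 92.3 CPM, and the death ligand gene egr had 23.0, 19.7 and 15.3 CPM against 9.67, 24.3 and 13 CPM. Both overlapped between groups through replicate 2. None of the 18 genes passed the adjusted threshold in edgeR with or without that library.

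**Figure D5:**
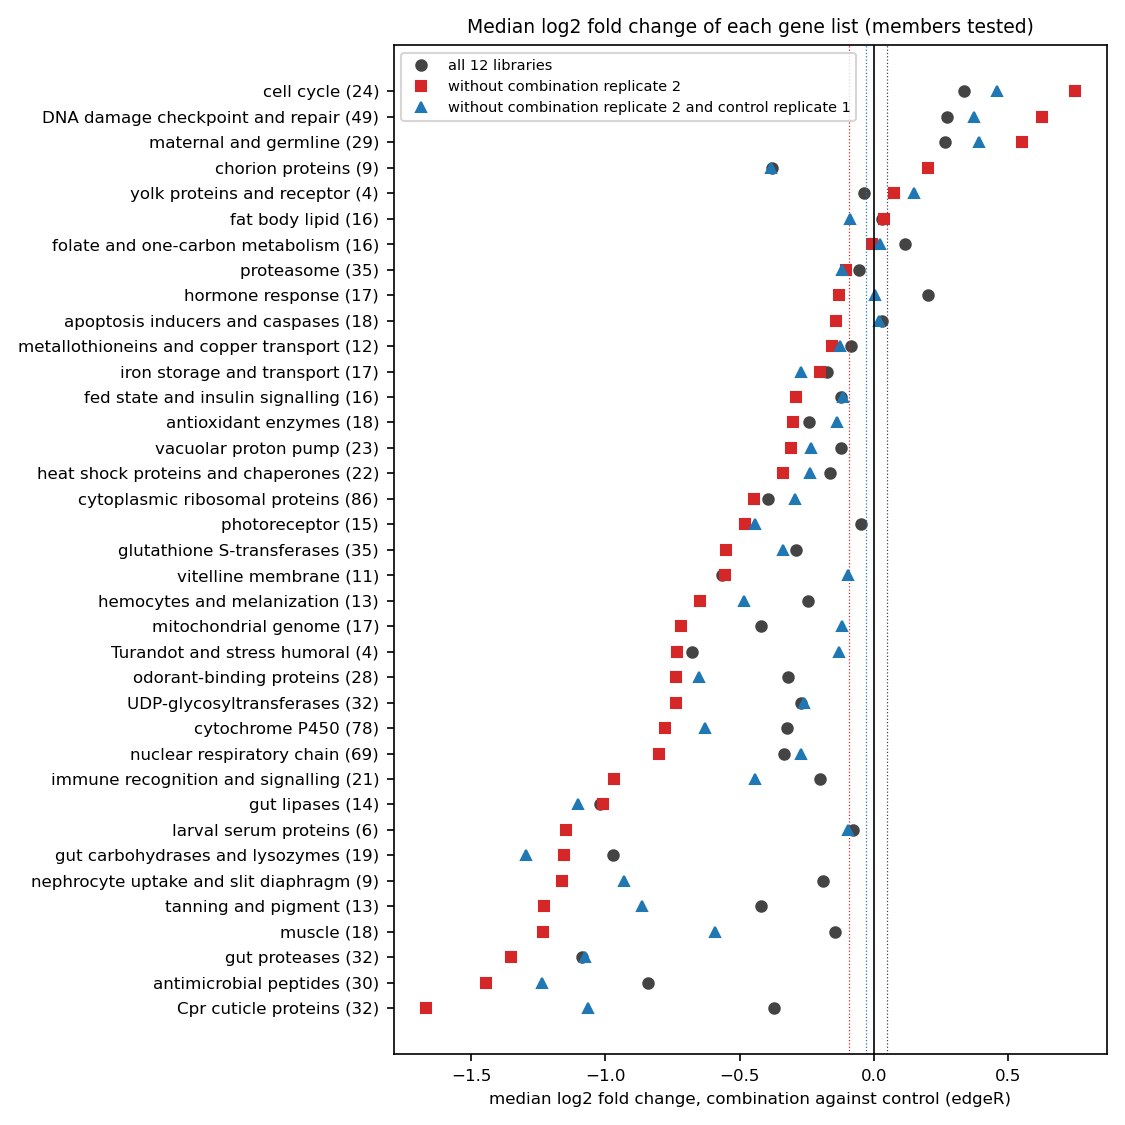
Median log2 fold change of each gene list, combination against control, from edgeR fits to all 12 libraries (black circles), without combination replicate 2 (red squares) and without control replicate 1 as well (blue triangles); dotted lines are the medians of all tested genes in the same colours, and list sizes are in brackets. Gut proteases, carbohydrases and lipases lie between -1.35 and -0.97 in all 3 fits, whereas the muscle, cuticle and larval serum medians run from -0.14 to -1.23, from -0.37 to -1.67 and from -0.08 to -1.15.

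Lists for tissue and physiological state mostly depended on single libraries. The muscle median was -0.14 in the 12-library fit, -1.23 in the 11-library fit and 0.56 without control replicate 1. Cuticle proteins of the Cpr family (32 tested) had -0.37, -1.67 and 0.26 under the same choices, and larval serum proteins (6 tested) had -0.08, -1.15 and 0.98. Respiratory chain genes of the nucleus (69 tested) had -0.33, -0.80 and 0.15, and genes of the mitochondrial genome (17 tested) had -0.42, -0.72 and 0.23. These lists changed sign with 1 library, so their direction was not settled by the data. Muscle transcripts varied with the respiratory chain, which summed to 35484, 24045 and 13534 CPM in control and 12206, 31461 and 19196 CPM in the combination.

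Egg and yolk genes overlapped between groups throughout. Yolk proteins with their receptor summed to 13565, 18045 and 13234 CPM in control and 17661, 10388 and 11214 CPM in the combination. Vitelline membrane genes (11 tested) had a median of -0.56 in the 12-library fit and -0.55 in the 11-library fit, which became -0.10 without control replicate 1 as well. In none of the yolk, chorion and vitelline membrane genes (24 tested in all) was the unadjusted p in edgeR under 0.05 in either fit.

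Fat body lipid genes (16 tested) had medians of 0.03 and 0.04, and genes of the fed state and insulin signalling (16 tested) had -0.12 and -0.29. The insulin receptor gene InR had 68.4, 59.1 and 67.4 CPM in control and 106, 56.2 and 79.2 CPM in the combination. Pepck2, an enzyme of gluconeogenesis, had 16.7, 14.5 and 17.0 CPM against 6.27, 12.3 and 7.66 CPM. Pepck2 did not overlap between groups (log2 fold change -0.88, edgeR adjusted p 0.657). Proteasome genes (35 tested) had medians of -0.05 and -0.10, and vacuolar proton pump genes (23 tested) had -0.12 and -0.31. Hormone response genes (17 tested) had 0.20 and -0.13, and photoreceptor genes (15 tested) -0.05 and -0.48. Odorant-binding protein genes (28 tested) had -0.32 and -0.74, and tanning and pigment genes (13 tested) -0.42 and -1.23.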

How the data were processed

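RNA was extracted with Trizol from whole bodies and stranded mRNA libraries were made, per the labels' protocols. The submitters' processing notes name FastQC, Trimmomatic, BWA, SAMtools and HTSeq without versions, while the columns are those of a featureCounts table, per the file headers. The strand setting is not given in the sources used here. The authors deposited raw counts of 17610 genes (unit: counts) and a table of this comparison with log2 fold changes, a test statistic (score), p-values and adjusted p-values, per the file headers. Of the genes, 17601 are in the annotation of BDGP6.54, and 17589 have the same coordinates there. The coordinates printed here are those of the annotation.

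Counts were fitted with edgeR 4.0.16 (R 4.3.3) over 4 groups: filterByExpr (11060 genes kept), TMM scaling, glmQLFit and glmQLFTest, either direction, with Benjamini-Hochberg adjustment at 0.05. A first fit used all 12 libraries and a second left out combination replicate 2. Standard errors beside edgeR values are approximate: the absolute log2 fold change divided by the square root of the test's F statistic. CPM of genes use TMM-scaled library sizes and sums over lists use library totals. A gene is called overlapping where the CPM ranges of the groups compared meet. DESeq2 1.42.0, limma 3.58.1 voom with sample weights, other scalings and filters, a covariate, a replicate block and left-out libraries were alternatives. On simulated counts for 11060 genes, 200 were changed 4-fold at the fitted dispersion. Of these, 61% were recovered by the first design, with 2.4% of calls false, and 64% by the second, with 3.03% false. Genes were drawn independently, without the shifts in tissue makeup that genes of a library share, so these rates may not hold here.

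Members and the 38 lists were chosen with earlier results of these data known. The rule was to name genes that passed, the 8 higher and 8 lower genes with the smallest p in each fit, and up to 4 members of each list with the smallest p without combination replicate 2, all with a mean of at least 5 CPM. Lists are described by counts and medians, with no test. Because earlier results were known when lists were chosen, their shares beside those of all genes are descriptive and not separate support. Tables of the single treatments and sequences were not used here.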

Additional observations from a re-analysis of the deposited data

Results flagged for a closer look

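Male transcripts summed to 3443 CPM in combination replicate 2, although the protocol says that female flies were used, while the controls held 3.31, 5.62 and 8.57 CPM and the other combination libraries 3.37 and 7.67 CPM. These genes are not what the comparison was made to measure, but the library is 1 of its 6. The 6 of them that were tested were all higher in the 12-library fit (median log2 fold change 5.57), and the median was -0.04 without that library. Genes of the Y chromosome summed to 47.5 CPM in that library and to between 2.76 and 5.16 CPM in the other 11. Where male tissue entered was not tested. With 3 libraries in each group, no test for a sample far from the others was made.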

How the results depend on the processing

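The number of genes that passed depended on the method and on single libraries. With all 12 libraries the count was 0 in edgeR and 47 in DESeq2, 6462 with limma voom and sample weights, and 373 with a covariate for the leading principal component of deviations from group means. Leaving out 1 library gave 0 to 4. Genes with an unadjusted p under 0.05 numbered 784, and 7061 with voom, 2899 with the covariate, 1697 with no filter, 503 at a mean of at least 5 CPM and 222 with only the 2 groups. Leaving out 1 library gave 467 (without control replicate 1) to 2436 (without combination replicate 2). Without combination replicate 2 the count passed was 4, and 503 in DESeq2, 4969 with voom, 4669 with the covariate, 2 at a mean of at least 5 CPM and 0 with only the 2 groups. Leaving out a further library gave 0 to 5842 (without control replicate 3), with 0 without combination replicate 1, combination replicate 3 or control replicate 2. Unadjusted counts were 2436, and 6153 with voom, 5802 with the covariate, 534 with only the 2 groups, and 437 to 6700 without 1 further library. Upper-quartile scaling gave 848 higher and 2095 lower genes in place of 981 and 1455 and moved the median of all genes from -0.09 to -0.28, and RLE scaling gave 1274 and 1334. The cause of these differences was not tested.

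Whether same-numbered libraries were handled together is not stated. Their deviations from the group means correlated across genes at -0.74, 0.22 and 0.19. With 3 libraries in each group, these values cannot decide whether the replicate numbers pair the libraries. A fit with a replicate block gave 0 called genes and 463 at an unadjusted p under 0.05 with all libraries, and 0 and 1243 without combination replicate 2.

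Cubn2 passed in 10 of 15 settings without combination replicate 2 (adjusted p 1.28e-22 in DESeq2 to 0.313 in edgeR). Amnionless passed in 9 of 14, aqz in 8 of 15 and CG3213 in 9 of 15. These tallies include the main fit. They also include voom, the covariate and the fit without control replicate 3, which called 4969, 4669 and 5842 of 11060 genes. Passing in those settings says little about a single gene. Of the named genes, 4 values changed sign, all with all libraries: Tsf3 was 0.13 without combination replicate 1 and 0.02 without combination replicate 3, and PGRP-SA was 0.19 and 0.10. Leaving out 1 library at a time gave -1.26 to 0.13 for Tsf3 and -1.30 to 0.19 for PGRP-SA. Over the settings, 2187 gene values kept their direction and side of the threshold, 474 passed only in the alternative and 23 no longer passed. Of the list medians, 1030 moved by less than the spread between replicates and 72 by more. Depth limits genes near 1 count, such as CG3213 in control.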
